A study of Mus musculus with 24 samples.

Results

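The retinal pigment epithelium (RPE) of Ift20 mutant mice was compared with that of control mice at 3 months of age, across all genes. The comparison holds the 8 libraries labelled as 3-month tissue, 4 control and 4 mutant, out of 24 libraries of 2 genotypes at 3 ages; the other 16 were collected at postnatal day 11 (P11) and postnatal day 29 (P29). Control mice carried the DCT-Cre driver, and mutant mice carried DCT-Cre together with the floxed IFT20 allele, so that Cre was present in both groups. All animals were of mixed background and untreated, and sex was not recorded. Cre driven from Dct acts in pigment cells, among them the RPE. The material was isolated RPE cells. Within a group, the 4 libraries carry biological replicate numbers, but it is not stated if a library is from 1 animal or from pooled animals. The p-values therefore measure only library-to-library spread, part of which may be technical. The QuantSeq kit used gives tags close to the 3' ends of polyadenylated transcripts.

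The RPE is a pigmented epithelium that faces the photoreceptors. It takes up the outer segment tips that rods and cones shed, regenerates the visual chromophore, and forms the outer blood-retinal barrier with its tight junctions and with Bruch's membrane beneath it. The Ift20 protein belongs to the intraflagellar transport (IFT) machinery, which carries cargo along the axoneme of primary cilia, and is also found at the Golgi.

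The 8 libraries held 2335766 to 2672988 gene counts each, and 3 counts corresponded to 1.12 to 1.28 CPM, the unit of level used here (counts scaled by library size and TMM factor). A gene count was found for 13132 to 13369 genes per control library and 13943 to 14043 genes per mutant library (exact two-sided permutation test, p = 0.0286, the smallest that 70 assignments allow; adjusted p = 0.0914 over 8 library measures). Markers of the RPE were high in every library: the summed level of 17 tested RPE markers was 72783 to 76182 CPM in the controls and 73531 to 76895 CPM in the mutants. The highest single gene that differed was Gm42418, a gene model that overlaps a ribosomal RNA repeat and was chosen after its values were seen, at 98808 ± 4389 CPM in the controls and 67655 ± 5518 CPM in the mutants (SD, n = 4; log2 fold change -0.55, SE 0.05, edgeR adjusted p = 1.79e-06).

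The groups also differed in transcripts that depend on sex. Xist, the RNA that coats the inactive X chromosome of female cells, was at 0, 0, 4.79 and 0 CPM in the controls and 468, 477, 479 and 425 CPM in the mutants (log2 fold change 8.55 in edgeR, adjusted p = 1.44e-13). Ddx3y, on the Y chromosome, was at 174, 172, 187 and 192 CPM in the controls and 47.7, 59.2, 57.9 and 46.3 CPM in the mutants (edgeR, log2 fold change -1.78, adjusted p = 6.58e-19). The Y-linked genes Eif2s3y, Uty and Kdm5d were lower in every mutant library than in every control library, with log2 fold changes of -2.55, -1.52 and -1.51. Each mutant library therefore held Xist together with Y-linked transcripts, while 3 of the 4 control libraries held no Xist count. Transcripts of female and of male cells were thus both present in every mutant library. Whether the 4 mutant libraries are separate pools of animals or parts of a shared pool is not stated and was not tested. Between the 2 groups, 96.31% of the variance of a score built from these genes lay between genotypes, so that genotype and the Xist and Y-linked level cannot be told apart in these 8 libraries, for any gene described here.

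**Figure D1:**
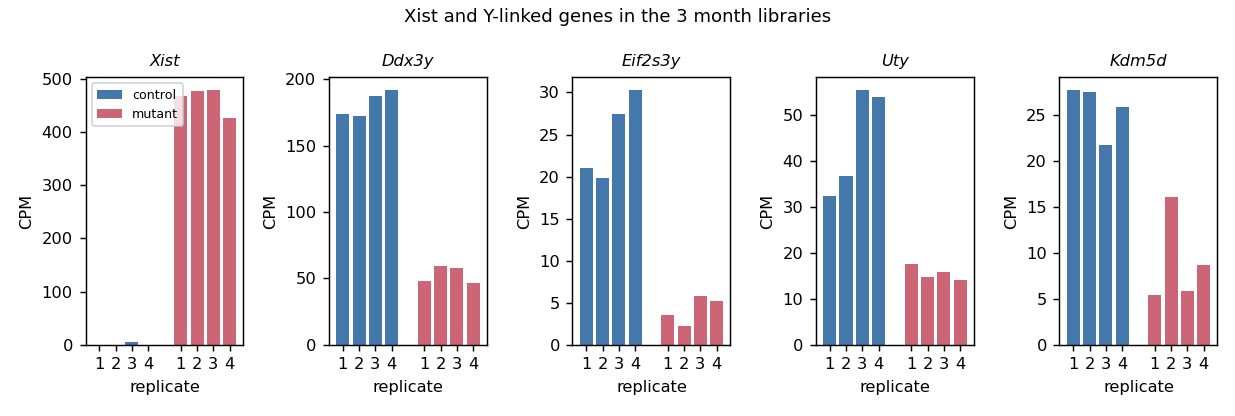
Level of Xist and of the Y-linked genes Ddx3y, Eif2s3y, Uty and Kdm5d in each of the 8 libraries at 3 months, in CPM, with 1 bar per library (blue, control; red, mutant). Xist is high in all 4 mutant libraries and at or near 0 in the controls, and the Y-linked genes are lower but present in every mutant library.

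Of 12303 genes tested, 262 were higher in the mutants (2.13%) and 59 were lower (0.48%) by the quasi-likelihood test of edgeR at a Benjamini-Hochberg adjusted p under 0.05. Among the 262, the median log2 fold change was 0.96, also with the 21 genes that had no control count set at their bound, and 121 lay above 1. Among the 59, the median was -0.47 and 7 lay below -1, 4 of the 59 being on the Y chromosome. The genes that rose included transcripts of rods, cones and other retinal neurons, and those that fell included endoplasmic reticulum chaperones, junction proteins and components of Bruch's membrane. The median over all tested genes was 0.03, and 6657 of the 12303 had a log2 fold change above 0. At an unadjusted p under 0.05, edgeR gave 7.8% of all genes higher and 3.46% lower. These are the backgrounds for such counts in the lists below. The number of lower genes depended on the fit: 165 were called lower when only the 8 libraries were fitted and 125 with voom, and 38 without mutant replicate 4. Where a call is given as lost without certain libraries, each of them was left out alone. With a rod marker score as a covariate, 1 gene was called higher and 1 lower, and with the score of Xist and the Y-linked genes, 5 higher and 18 lower; 99.73% and 96.31% of the variance of these scores lay between genotypes at this age, and the cause of the lost calls was not tested.

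**Figure D2:**
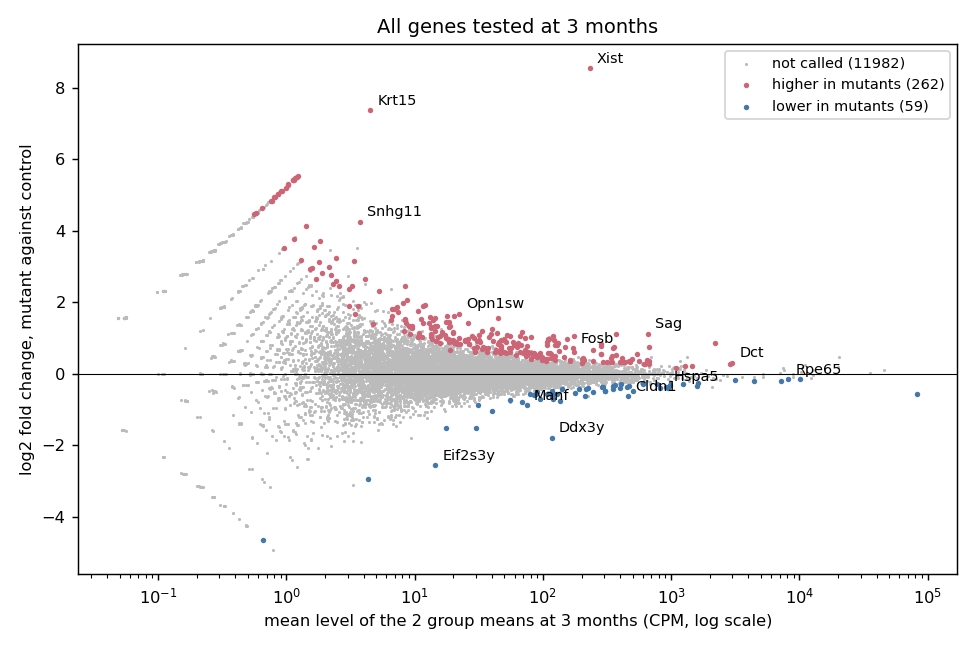
Each point is 1 of the genes tested at 3 months, with the mean of the 2 group means in CPM (log scale) on the horizontal axis and the edgeR log2 fold change of mutant against control on the vertical axis; red points were called higher (262), blue points lower (59), and grey points were not called. Sag and Dct lie among the genes of high level that were higher, Cldn1, Manf and Hspa5 among the lower, and Xist and the Y-linked genes at the extremes.

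Ift20 itself lies at chr11:78536361-78541737, + strand in GRCm38. It was at 118, 159.9, 126 and 133 CPM in the controls and 115, 116, 117 and 97.4 CPM in the mutants. Every mutant library lay below every control library, but the difference did not pass the test (edgeR, log2 fold change -0.26, SE 0.15, adjusted p = 0.547). Which exons are floxed is not given here, and tags near the 3' end need not cover them, so this level does not check the deletion. At P29 the log2 fold change of Ift20 was -0.60 (adjusted p = 0.0112) and at P11 -0.27 (adjusted p = 0.353).

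None of the genes of ciliary machinery was called at 3 months by edgeR at the adjusted threshold. This held for 28 tested genes of intraflagellar transport (median log2 fold change 0.0049, 15 above 0), 19 of the BBSome and ciliary membrane (median -0.06), 22 of the transition zone and basal body (median -0.0008) and 9 of the Hedgehog pathway, which signals through the cilium (median 0.04). DESeq2 and voom also called 0 of these genes, and at an unadjusted p under 0.05 edgeR gave 1, 2, 1 and 1 higher in the 4 lists, in that order, and 0 lower, against 7.8% and 3.46% of all genes at that level. Of the IFT genes, 2 were lower in all 4 mutant libraries than in any control library, against 3% of all genes tested. The summed level of the IFT genes was 891 to 1026 CPM in the controls and 921 to 982 CPM in the mutants, which overlap. Of 17 genes of the Wnt pathway and planar polarity, edgeR and DESeq2 called 0 and voom 1 lower, with 2 higher and 1 lower at an unadjusted p under 0.05.

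Rod photoreceptor genes formed the largest group of rises among the lists examined. Of 18 rod genes tested, 16 were called higher and 0 lower, against 2.13% of all genes called higher; 17 of the 18 were higher in every mutant library than in every control library, against 5.07% of all genes. The median log2 fold change of the 18 was 0.75. Their summed level was 6056 to 6497 CPM in the controls and 9941 to 10417 CPM in the mutants. In isolated tissue of this kind, more rod cells or cell fragments and more rod RNA per cell or fragment cannot be told apart. The rod list's score also separated the groups almost completely, with 99.73% of its variance between genotypes, and the part that rod material has in the other changes was not tested.

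Sag, the rod arrestin that ends the response of the activated visual pigment, was at 431, 433, 387 and 400.5 CPM in the controls and 888, 879, 909 and 931 CPM in the mutants. Its level more than doubled in each mutant library relative to the mean of the controls (edgeR, log2 fold change 1.13, SE 0.06, adjusted p = 5.6e-30). The mutant libraries lay close together and clear of the controls. Sag lies at chr1:87803680-87845158, + strand, in GRCm38.

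Genes of the rod light response were among the rises. Gnat1, the alpha subunit of rod transducin, was at 458, 515, 492 and 542 CPM in the controls and 799.6, 864, 829.5 and 906 CPM in the mutants (edgeR, log2 fold change 0.76, adjusted p = 1.23e-16). The subunits of the phosphodiesterase that transducin activates rose by similar amounts, with log2 fold changes of 0.80 for Pde6a, 0.83 for Pde6b and 0.74 for Pde6g. For the cyclic nucleotide-gated channel that closes in light, Cnga1 was at 84.2, 83.6, 76.7 and 86.9 CPM in the controls and 158, 158, 164 and 162 CPM in the mutants (edgeR, log2 fold change 0.95, adjusted p = 2.9e-12). Its partner subunit Cngb1 rose less, at 76.4 to 109 CPM in the controls and 116 to 160.3 CPM in the mutants (edgeR, log2 fold change 0.56, adjusted p = 0.000111). The calcium sensors Rcvrn and Guca1b had log2 fold changes of 0.87 and 0.88; Rcvrn overlaps Glp2r on the other strand, and whether counting used the strand is unknown here.

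Structural genes of the rod outer segment showed the same direction. Prph2 and Rom1 encode tetraspanins of the disc rim. Prph2 was at 245, 276, 256 and 283 CPM in the controls and 442, 416, 462 and 452 CPM in the mutants (edgeR, log2 fold change 0.74, adjusted p = 6.04e-14), and Rom1 was at 377 to 496 CPM in the controls and 616 to 691 CPM in the mutants (edgeR, log2 fold change 0.57, adjusted p = 2.44e-08). Rp1, a microtubule protein of the photoreceptor axoneme, had a log2 fold change of 0.81. The transcription factors that set rod identity changed less: Nrl had a log2 fold change of 0.36 and Nr2e3 of 0.47, and the call of Nrl was lost without mutant replicate 2 or 3 (highest adjusted p = 0.0582). Gnb1, the transducin beta subunit that many other cells also use, had a log2 fold change of 0.38.

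A pair of rod genes was not called. Gngt1, the transducin gamma subunit, was at 89.2, 79.04, 128 and 112 CPM in the controls and 167, 177, 84.4 and 143 CPM in the mutants, and the groups overlapped because 1 mutant library was low (edgeR, log2 fold change 0.49, adjusted p = 0.628). Slc24a1, the rod sodium-calcium exchanger, was at 1059.5, 1144, 1094 and 1095 CPM in the controls and 1162, 1219, 1354 and 1343 CPM in the mutants, with no overlap (edgeR, log2 fold change 0.21, adjusted p = 0.0913; voom adjusted p = 0.0119). The log2 fold changes of the 18 rod genes thus ran from 0.21 to 1.13. Pde6a, Cnga1, Cngb1, Rom1, Nrl, Nr2e3, Rcvrn, Gnb1, Rp1, Guca1b, Gngt1 and Slc24a1 lie outside the rule for named genes; they are given so that the list is described in full as far as it is reported here, and were chosen after their values were seen.

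**Figure D3:**
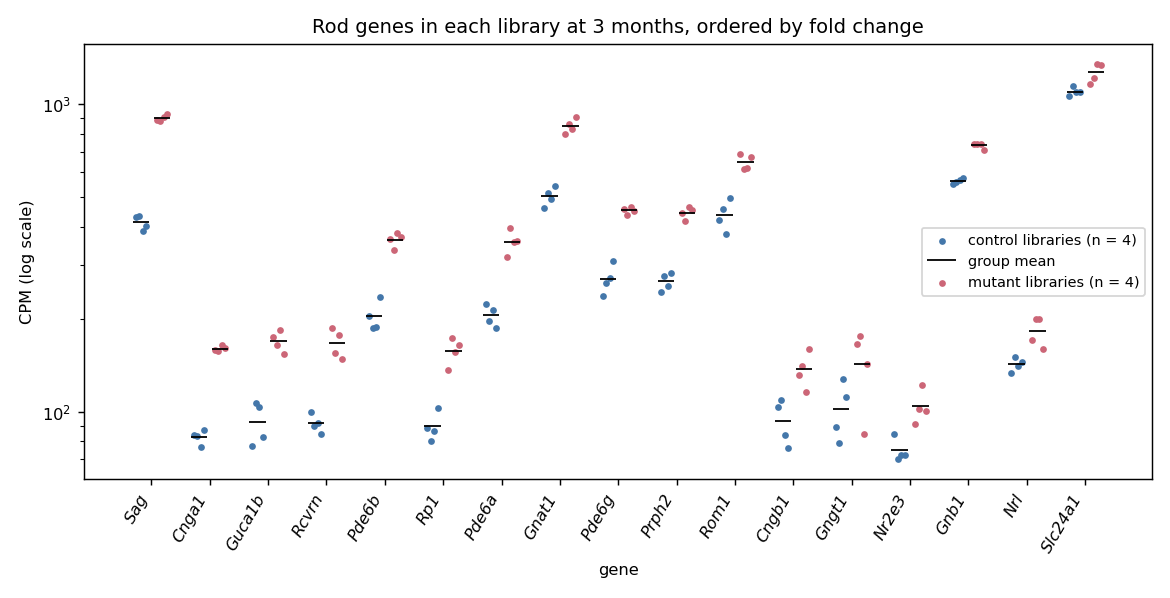
CPM (log scale) of 17 of the 18 rod genes in each 3-month library, ordered from the highest to the lowest log2 fold change; blue points are control libraries, red points mutant libraries (n = 4 each), and black lines group means. The red points lie above all blue points for each gene shown except Gngt1.

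The start of Sag is shown because its transcript had the largest rod fold change, and because rod promoters are bound by homeobox factors such as Crx. The 250 bases before the RefSeq start (build GRCm38.p6, chr1:87803430-87803679, + strand) read, 5' to 3' along the gene, with the match to TAATCC in capitals on the opposite strand:
Sag: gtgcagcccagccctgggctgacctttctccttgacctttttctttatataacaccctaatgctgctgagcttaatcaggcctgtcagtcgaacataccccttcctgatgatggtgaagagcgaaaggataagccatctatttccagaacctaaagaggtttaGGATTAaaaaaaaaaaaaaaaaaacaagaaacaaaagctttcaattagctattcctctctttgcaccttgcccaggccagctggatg
TAATCC was searched on both strands in windows from 250 bases before to 50 bases after the start. It was found in 2320 of 32851 RefSeq windows (7.06%) and in 4 of the 11 rod genes that have a window there, Cnga1, Cngb1, Gngt1 and Sag. The windows of Pde6b and Prph2 hold no match. A match is a description of these letters only.

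Cone genes rose as well, from a lower level. Of 9 tested cone genes, 5 were called higher, against 2.13% of all genes, and 0 lower; all 9 had a log2 fold change above 0, and the median was 1.09. Their summed level was 75.6 to 107 CPM in the controls and 178 to 185 CPM in the mutants. Opn1sw, the short-wavelength cone opsin, was at 13.5, 15.4, 7.41 and 6.06 CPM in the controls and 35.6, 32.2, 35.9 and 32.3 CPM in the mutants (edgeR, log2 fold change 1.69, SE 0.24, adjusted p = 7.48e-08); it overlaps Calu on the other strand. Pde6h, the inhibitory subunit of cone phosphodiesterase, was at 2.95, 12.2, 4.36 and 6.87 CPM in the controls and 19.6, 21.3, 23.4 and 15.3 CPM in the mutants (edgeR, log2 fold change 1.59, adjusted p = 0.000357). The other called members were Gnb3, Arr3 and Cngb3, and each lost its call when single libraries were left out. Gnb3, the cone transducin beta subunit, did so without control replicate 2 or 4, or mutant replicate 2 or 4, and also when only the 8 libraries were fitted (adjusted p = 0.160) and with voom (0.202). Arr3, cone arrestin, which was also chosen after its values were seen, did so without control replicate 1, 2 or 3, or mutant replicate 1, 2, 3 or 4, and also with median-of-ratios scaling (adjusted p = 0.054) and with no filter on low counts (0.0957). Cngb3, a cone channel subunit, did so without control replicate 1, 3 or 4, or mutant replicate 2 or 3, and also when only the 8 libraries were fitted (adjusted p = 0.106) and with voom (0.156).

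Further genes known from photoreceptors were among the clearest rises. Tulp1, a photoreceptor tubby-like protein whose product also serves as a ligand for phagocytosis, was at 85.8, 70.9, 75.4 and 78.8 CPM in the controls and 127, 187, 161 and 171 CPM in the mutants (edgeR, log2 fold change 1.05, SE 0.10, adjusted p = 3.96e-14). Reep6, which acts in membrane trafficking in rods, was at 126, 117, 86.7 and 120.0 CPM in the controls and 231, 237, 225 and 249 CPM in the mutants (edgeR, log2 fold change 1.07, SE 0.10, adjusted p = 6.52e-14). Epb41l2, a membrane skeleton protein, was at 108, 91.2, 91.1 and 122 CPM in the controls and 219.8, 166, 227 and 204 CPM in the mutants (edgeR, log2 fold change 0.99, SE 0.09, adjusted p = 1.35e-14). In all of them the lowest mutant library lay above the highest control library. Rdh12, the retinol dehydrogenase of photoreceptor inner segments, had a log2 fold change of 0.90 (edgeR adjusted p = 6.59e-07). Crx, the homeobox factor of photoreceptors, was at 15.6, 27.6, 29.2 and 27.1 CPM in the controls and 53.6, 58.8, 51.6 and 40.2 CPM in the mutants (edgeR, log2 fold change 1.04, adjusted p = 1.2e-07). Tub, the founding tubby gene, which overlaps Ric3, had a log2 fold change of 1.05 and lost its call without control replicate 2 or 3, or mutant replicate 3 or 4, when only the 8 libraries were fitted (adjusted p = 0.128) and with voom (0.163).

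Some transcripts of retinal neurons other than photoreceptors were higher in the mutants, at low level. Of 14 tested genes of inner retinal neurons, 4 were called higher, against 2.13% of all genes, and 0 lower. The log2 fold changes ran from -3.14 to 5.32, with 11 of the 14 above 0, and had a median log2 fold change of 2.41, or 1.74 with the 6 genes that had no control count set at their bound. DESeq2 also called 4, while voom called 0, and Grm6, Tfap2b and Pcp2 were not called when only the 8 libraries were fitted (adjusted p 0.061 to 0.148). Grm6, the glutamate receptor of ON bipolar cells, had no count in any control library and 0.898 to 4.30 CPM in the mutants, a level at least 6.72-fold higher over a floor of 3 counts in the control group. Tfap2b, a factor of amacrine cells, was at 0.421, 0.903, 0.872 and 1.62 CPM in the controls and 8.21, 2.61, 6.74 and 3.06 CPM in the mutants (edgeR, log2 fold change 2.37, adjusted p = 0.000366). Pcp2, of bipolar cells, was also called, and lost its call without control replicate 2 or 4, or mutant replicate 3 or 4; it overlaps Pet100. The summed level of the list was 641 to 771 CPM in the controls and 642 to 726 CPM in the mutants, since genes of the list that were not called carried most of it. Of 8 retinal ganglion cell genes and 9 genes of Müller glia and astrocytes, 0 were called by edgeR, DESeq2 or voom. At an unadjusted p under 0.05 in edgeR, 0 and 3 were higher, against 7.8% of all genes.

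Other genes with neuronal expression were also called higher. Snhg11, a long noncoding RNA of neurons, had 3 counts over the control group and 67 over the mutant group, a depth-scaled ratio of 22.5 (95% exact binomial interval 7.38 to 112, counting error only). Unc13c, a presynaptic priming factor, was at 0, 1.81, 3.49 and 4.85 CPM in the controls and 11.7, 9.15, 26.5 and 10.04 CPM in the mutants (edgeR, log2 fold change 2.46, adjusted p = 5.32e-05), with mutant replicate 3 the highest. Kif5a, a neuronal kinesin, was at 3.37, 4.07, 7.85 and 4.85 CPM in the controls and 20.3, 13.1, 26.05 and 17.03 CPM in the mutants (edgeR, log2 fold change 1.92, adjusted p = 4.57e-06). Celf4, a neuronal RNA-binding protein, was at 1.26, 3.16, 4.79 and 4.04 CPM in the controls and 18.8, 10.5, 13.02 and 13.5 CPM in the mutants (edgeR, log2 fold change 2.06, adjusted p = 1.6e-08). The groups did not overlap for any of these 4 genes. Among 18 transcription factors of the eye field and RPE, 4 were called higher and 0 lower, against 2.13% and 0.48% of all genes. The higher ones included Crx, Pax6 and Rax. DESeq2 called 4 higher and 0 lower, and voom 2 higher and 1 lower. Rax, a homeobox factor of retinal progenitors and photoreceptors, was at 7.99, 3.61, 2.62 and 4.85 CPM in the controls and 22.7, 12.6, 13.02 and 17.5 CPM in the mutants (edgeR, log2 fold change 1.77, adjusted p = 1.02e-05). Pax6 was at 3.37, 3.16, 9.15 and 4.04 CPM in the controls and 14.5, 8.28, 14.8 and 8.30 CPM in the mutants, with overlap in control replicate 3, and lost its call without control replicate 1, 2 or 4, or mutant replicate 1 or 3, when only the 8 libraries were fitted (adjusted p = 0.150) and with voom (0.178).

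Among 17 RPE markers, 1 was called higher and 1 lower, against 2.13% and 0.48% of all genes. Their median log2 fold change was -0.06. Rpe65, the isomerase that makes 11-cis-retinol, was at 8765, 8859, 8253 and 8395 CPM in the controls and 7916, 7990.3, 7789 and 7162 CPM in the mutants. The groups did not overlap, and the change was small (edgeR, log2 fold change -0.15, SE 0.04, adjusted p = 0.0306); the call was lost without control replicate 1 or 2, or mutant replicate 3 or 4, and with no filter on low counts (adjusted p = 0.0675). Dct, the melanin enzyme whose name the Cre driver carries, was at 2607, 2703, 2520.1 and 2834 CPM in the controls and 3235, 3203, 3299.6 and 3569 CPM in the mutants. All mutant libraries lay above all controls (edgeR, log2 fold change 0.32, SE 0.05, adjusted p = 3.58e-07). Of 15 genes of melanin synthesis and the melanosome, Dct was the only one called by edgeR. Of 13 visual cycle genes, 1 was called higher, Rdh12, and 2 lower, among them Rpe65, against 2.13% and 0.48% of all genes. DESeq2 called 1 higher and 2 lower, and voom 1 higher and 3 lower. At an unadjusted p under 0.05, edgeR gave 1 higher and 4 lower, against 7.8% and 3.46% of all genes. Rgr, the RPE opsin, was not called (edgeR, log2 fold change 0.05, adjusted p = 0.823).

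Transporters of the RPE moved in both directions. Slc16a1, a monocarboxylate transporter that carries lactate, was at 1475, 1271, 1383 and 1336 CPM in the controls and 1113, 1164, 1148 and 1065 CPM in the mutants (edgeR, log2 fold change -0.28, SE 0.06, adjusted p = 0.00167), lower without overlap. Slc22a8, an organic anion transporter, was at 342, 395, 335 and 329.8 CPM in the controls and 463, 434, 492 and 533 CPM in the mutants (edgeR, log2 fold change 0.46, SE 0.09, adjusted p = 0.000194), higher without overlap. These were the only calls by edgeR among 16 genes of metabolite transport, whose median was 0.0038. Among 18 ion transport genes, 3 were called higher, against 2.13% of all genes, and 0 lower, with a median of 0.0057 and 9 above 0. Atp1b2, a beta subunit of the sodium pump, was at 293, 325, 248 and 271 CPM in the controls and 367, 399, 426 and 364 CPM in the mutants (edgeR, log2 fold change 0.45, adjusted p = 7.36e-05). Slc4a7, a sodium bicarbonate cotransporter, had a log2 fold change of 0.60 and lost its call when only the 8 libraries were fitted (adjusted p = 0.0528).

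In the list of 17 genes of outer segment phagocytosis, 3 were called higher and 0 lower, against 2.13% and 0.48% of all genes. The calls were Tulp1, Tub and Mfge8, of which Mfge8 is a secreted bridge between shed membranes and integrin on the RPE. Mfge8 was at 85.4, 99.4, 81.1 and 84.1 CPM in the controls and 105, 134, 144 and 144 CPM in the mutants (edgeR, log2 fold change 0.59, SE 0.12, adjusted p = 0.000592). The list's median was 0.01, and its summed level was 2385 to 2467 CPM in the controls and 2404 to 2487 CPM in the mutants, which overlap. Of 23 lysosome genes, Psap was called, the precursor of the saposins that activate lysosomal lipid hydrolases. Psap was at 2813, 2743, 2395 and 2392 CPM in the controls and 3248, 3081, 3076 and 3044 CPM in the mutants (edgeR, log2 fold change 0.27, SE 0.06, adjusted p = 0.00182). Of 16 autophagy genes, edgeR and DESeq2 called 0 and voom 1 higher. At an unadjusted p under 0.05 in edgeR, 4 were higher, against 7.8% of all genes.

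Of 20 epithelial junction genes tested, 2 fell, against 0.48% of all genes, and 1 rose, with a median log2 fold change of -0.13 and 6 above 0. The summed level of the list was 1473 to 1550 CPM in the controls and 1138 to 1248 CPM in the mutants. Cldn1, a claudin of tight junctions, was at 542, 563, 521 and 591 CPM in the controls and 333, 374, 344 and 388 CPM in the mutants. The mutant libraries stood clearly apart below the controls (edgeR, log2 fold change -0.62, SE 0.09, adjusted p = 7.78e-08). Gja1, the gap junction protein connexin 43, was at 245, 236, 277 and 263 CPM in the controls and 168, 181, 166 and 157 CPM in the mutants, again without overlap (edgeR, log2 fold change -0.60, SE 0.10, adjusted p = 3.11e-06). The higher gene was Crb1, an apical polarity protein of photoreceptors and Müller glia, at 10.5, 6.32, 6.54 and 4.45 CPM in the controls and 22.3, 19.2, 16.2 and 17.5 CPM in the mutants (edgeR, log2 fold change 1.43, adjusted p = 0.000523). Slc9a3r1, the scaffold that anchors apical membrane proteins to ezrin, was the only one of 16 actin and apical process genes called by edgeR, at 174 to 235 CPM in the controls and 123 to 185 CPM in the mutants (log2 fold change -0.52, adjusted p = 0.00289), with overlap.

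Among genes of the basement membrane and Bruch's membrane, 4 of 21 fell, against 0.48% of all genes, and 0 rose, with a median of -0.16 and 6 above 0. Their summed level was 16374 to 16751 CPM in the controls and 14549 to 15248 CPM in the mutants. Timp3, a metalloproteinase inhibitor that is deposited in Bruch's membrane, was at 10514, 10517, 10616 and 10568 CPM in the controls and 9390.5, 9561, 9690.4 and 9325 CPM in the mutants (edgeR, log2 fold change -0.15, SE 0.04, adjusted p = 0.0244). Col8a1, a collagen of the same layer, was at 3391, 3121, 3439.7 and 3347 CPM in the controls and 2854, 3061, 3066 and 2838 CPM in the mutants (edgeR, log2 fold change -0.17, SE 0.05, adjusted p = 0.0381). The network collagens Col4a4 and Col4a3 had log2 fold changes of -0.30 and -0.49, and their groups overlapped. All 4 calls were close to the threshold. That of Timp3 was lost without control replicate 1, 2, 3 or 4, or mutant replicate 1, 2 or 4, that of Col8a1 without control replicate 1, 3 or 4, or mutant replicate 1 or 4, that of Col4a4 without control replicate 1, 3 or 4, or mutant replicate 1, 2 or 4, and that of Col4a3 without control replicate 1 or 3, or mutant replicate 1, 3 or 4. With no filter on low counts, the calls of Timp3 (adjusted p = 0.0524) and Col8a1 (0.0694) were also lost. Timp3 overlaps Syn3, and Col4a3 overlaps C430014B12Rik.

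Thbs1 and F3 were also lower. Thbs1, thrombospondin 1, an antiangiogenic matrix protein, was at 297, 233, 299 and 310.4 CPM in the controls and 213, 213, 212 and 173 CPM in the mutants (edgeR, log2 fold change -0.49, SE 0.10, adjusted p = 0.000191), and was the single call among 21 genes of epithelial-mesenchymal transition and fibrosis. F3, tissue factor, which starts coagulation, was at 39.6, 37.9, 75.4 and 62.2 CPM in the controls and 32.1, 35.3, 15.7 and 21.8 CPM in the mutants (edgeR, log2 fold change -1.03, SE 0.29, adjusted p = 0.0251), a call lost without control replicate 3 or 4, or mutant replicate 3 or 4. The groups did not overlap for either gene.

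**Figure D4:**
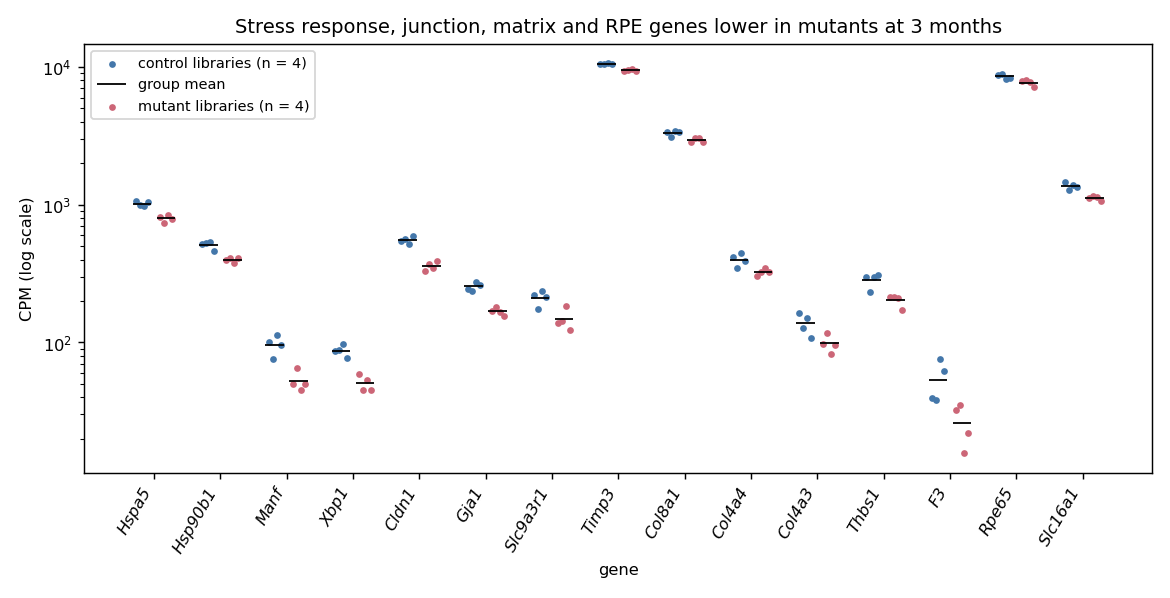
CPM (log scale) in each 3-month library for 15 genes called lower in mutants: endoplasmic reticulum stress genes at the left, junction, scaffold and matrix genes in the middle, and RPE genes at the right; blue points are control and red points mutant libraries (n = 4 each), with group means as black lines. Manf, Xbp1 and Cldn1 show a clear gap between groups, and the RPE genes a narrow one.

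The unfolded protein and integrated stress response raises chaperones when misfolded proteins collect in the endoplasmic reticulum, through the sensors Ire1, Perk and Atf6. Of 19 tested genes of this response, 4 were called lower, against 0.48% of all genes, and 0 higher; 2 of the 19 had a log2 fold change above 0, and the median was -0.30. The summed level of the list was 3544 to 3684 CPM in the controls and 2947 to 3051 CPM in the mutants.

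Hspa5, the main chaperone of the endoplasmic reticulum (BiP), was at 1066, 996, 976 and 1045 CPM in the controls and 820.0, 743, 848 and 791 CPM in the mutants. Each mutant library lay below each control (edgeR, log2 fold change -0.35, SE 0.07, adjusted p = 0.000239). Hsp90b1, its HSP90 family partner, was at 522, 524, 540.5 and 459.9 CPM in the controls and 397, 408, 376 and 413 CPM in the mutants (edgeR, log2 fold change -0.36, SE 0.08, adjusted p = 0.00221). Manf, a small secreted protein of the same compartment, was at 100.1, 76.3, 113 and 96.6 CPM in the controls and 50.05, 64.9, 45.4 and 50.2 CPM in the mutants (edgeR, log2 fold change -0.87, SE 0.17, adjusted p = 0.000303). Its group means differed by a larger factor than those of either chaperone. Xbp1, the transcription factor whose mRNA Ire1 splices, was at 87.1, 87.6, 97.6 and 76.8 CPM in the controls and 59.04, 44.9, 52.99 and 45.4 CPM in the mutants (edgeR, log2 fold change -0.78, SE 0.19, adjusted p = 0.00401). All 4 kept their call with each 3-month library left out in turn. Manf overlaps Dcaf1 and Hsp90b1 overlaps 1810014B01Rik on the other strand.

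The promoters of Hspa5 and Hsp90b1 are shown because both genes fell and both hold the endoplasmic reticulum stress response element, written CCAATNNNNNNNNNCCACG, through which Atf6 and Nfy act. The 250 bases before each RefSeq start (build GRCm38.p6; Hspa5 chr2:34771840-34772089, + strand; Hsp90b1 chr10:86705445-86705694, - strand) read 5' to 3' along the gene, with matches on either strand in capitals:
Hspa5: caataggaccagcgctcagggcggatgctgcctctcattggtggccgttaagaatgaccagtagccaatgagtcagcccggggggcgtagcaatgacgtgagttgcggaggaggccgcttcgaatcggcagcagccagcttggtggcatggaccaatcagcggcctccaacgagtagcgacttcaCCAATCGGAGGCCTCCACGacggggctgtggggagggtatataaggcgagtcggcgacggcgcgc
Hsp90b1: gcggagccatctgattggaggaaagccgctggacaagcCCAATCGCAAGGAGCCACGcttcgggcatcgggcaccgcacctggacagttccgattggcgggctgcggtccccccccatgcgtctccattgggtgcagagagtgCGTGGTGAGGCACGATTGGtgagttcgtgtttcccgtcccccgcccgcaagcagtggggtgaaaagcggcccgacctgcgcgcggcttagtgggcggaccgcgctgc
Hspa5 holds 1 match and Hsp90b1 holds 2, on opposite strands. In windows from 250 bases before to 50 bases after the start, the element was found in 39 of 32851 RefSeq windows (0.119%) and in 6 of the 16 tested genes of this list that have a window: Calr, Creld2, Dnajc3, Hsp90b1, Hspa5 and Pdia6. Of these 6 genes, edgeR called only Hsp90b1 and Hspa5 at 3 months. The window of Xbp1, which was also called lower, holds no match. These are matches of letters, not measured sites.

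The genotype difference of these stress genes was not the same at all ages. For Hspa5 it was 0.28 (adjusted p = 0.00605) at P29 and -0.00 (adjusted p = 0.996) at P11 on the log2 scale, and the difference of the 3-month effect from the P29 effect was -0.63, SE 0.10, adjusted p = 4.25e-06 in the interaction test of edgeR. Manf and Xbp1 were also called in that test, at -1.29, SE 0.25, adjusted p = 0.0005 and -1.33, SE 0.26, adjusted p = 0.000759. Hspa5 was at 738 ± 21.98 CPM in controls and 897 ± 38.9 CPM in mutants at P29 (SD, n = 4), and at 1021 ± 41.9 and 800.5 ± 44.7 CPM at 3 months. Xist differed between genotypes at P29 and P11 too, by 1.64 (adjusted p = 3.3e-06) and 0.99 (adjusted p = 0.00198) on the log2 scale in edgeR.

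Cytosolic heat shock genes did not follow the endoplasmic reticulum chaperones. Of 14 tested, 2 were called higher and 0 lower, against 2.13% and 0.48% of all genes, the near-identical neighbours Hspa1a and Hspa1b, between which tags can be divided uncertainly. Hspa1a, an inducible HSP70, was at 11.4, 18.97, 11.8 and 14.95 CPM in the controls and 38.3, 37.9, 30.5 and 45.9 CPM in the mutants (edgeR, log2 fold change 1.42, SE 0.30, adjusted p = 0.000709). Hspa1b was at 3.92 to 16.8 CPM in the controls and 17.4 to 29.7 CPM in the mutants and lost its call without control replicate 2, 3 or 4, or mutant replicate 1 or 4.

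Immediate early genes, which are transcribed within minutes of a stimulus or of tissue handling, gave 3 higher calls and 1 lower call among 18 tested, against 2.13% and 0.48% of all genes. Fosb, a subunit of the transcription factor AP-1, was at 148, 122, 120.3 and 127 CPM in the controls and 204, 231, 207 and 212 CPM in the mutants (edgeR, log2 fold change 0.72, SE 0.11, adjusted p = 5.22e-07). Klf4, a zinc finger factor, was at 99.3, 56.9, 62.3 and 79.6 CPM in the controls and 133, 166, 149 and 139 CPM in the mutants (edgeR, log2 fold change 0.97, SE 0.13, adjusted p = 2.37e-08). Jun, another AP-1 subunit, was at 374, 387, 385 and 340.3 CPM in the controls and 479, 471, 486 and 439 CPM in the mutants (edgeR, log2 fold change 0.34, adjusted p = 0.0178), a call lost without control replicate 4, or mutant replicate 1 or 3. In these 3 genes each mutant library lay above each control. Nr4a1, an orphan nuclear receptor, was at 112, 101, 101 and 93.8 CPM in the controls and 71.9, 72.8, 55.7 and 72.1 CPM in the mutants, lower in all mutants (edgeR, log2 fold change -0.58, adjusted p = 0.0133), and lost its call without control replicate 1, or mutant replicate 3.

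The direction of Fosb, Klf4 and Jun at 3 months was opposite to that at the younger ages. At P29, 7 of the 18 immediate early genes were called lower and 0 higher (background 1.21% and 1.63% of all genes), and at P11, 14 were lower and 0 higher (3.67% and 3.26%). For Fosb, control and mutant means were 110.0 ± 11.5 and 36.2 ± 10.9 CPM at P11, 528 ± 44.4 and 311 ± 29.9 CPM at P29, and 129 ± 12.8 and 213 ± 12.2 CPM at 3 months (SD, n = 4). The control mean was thus highest at P29. The interaction of Fosb was 1.48, SE 0.15, adjusted p = 2.18e-12 against P29 and 2.33, SE 0.17, adjusted p = 8.06e-21 against P11 (edgeR). Klf4 gave 1.73, SE 0.18, adjusted p = 8.41e-12 against P29 and Jun 0.91, SE 0.13, adjusted p = 2.41e-07. In all, 6 genes of the list had a higher effect at 3 months than at P29 (background 0.61%) and 9 than at P11 (background 1.94%), with 0 lower in either.

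Aplp1, an amyloid precursor-like protein, showed the same reversal. It was at 45.4, 30.7, 41.8 and 55.4 CPM in the controls and 82.1, 79.7, 73.2 and 67.7 CPM in the mutants at 3 months (edgeR, log2 fold change 0.80, SE 0.17, adjusted p = 0.00097), while at P29 its log2 fold change was -1.01 (adjusted p = 4.98e-06) and at P11 -0.67 (adjusted p = 0.00545). The interaction against P29 was 1.81, SE 0.24, adjusted p = 3.78e-08. Thbs1 turned the other way, with 0.61 (adjusted p = 1.19e-06) at P29 and an interaction of -1.10, SE 0.13, adjusted p = 2.81e-09. Slc22a8 and Psap, higher at 3 months, were lower at P29, by -0.41 (adjusted p = 0.00112) and -0.24 (adjusted p = 0.00921), with interactions of 0.86, SE 0.12, adjusted p = 6.59e-07 and 0.50, SE 0.08, adjusted p = 3.74e-05. Wfikkn2, a secreted protease inhibitor-like protein, and Rgr were lower at P29, by -1.11 (adjusted p = 3.79e-16) and -0.48 (adjusted p = 1.69e-14), and did not pass the test at 3 months, with log2 fold changes of 0.01 and 0.05; their interactions were 1.12, SE 0.14, adjusted p = 2.97e-09 and 0.52, SE 0.06, adjusted p = 2.81e-09.

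**Figure D5:**
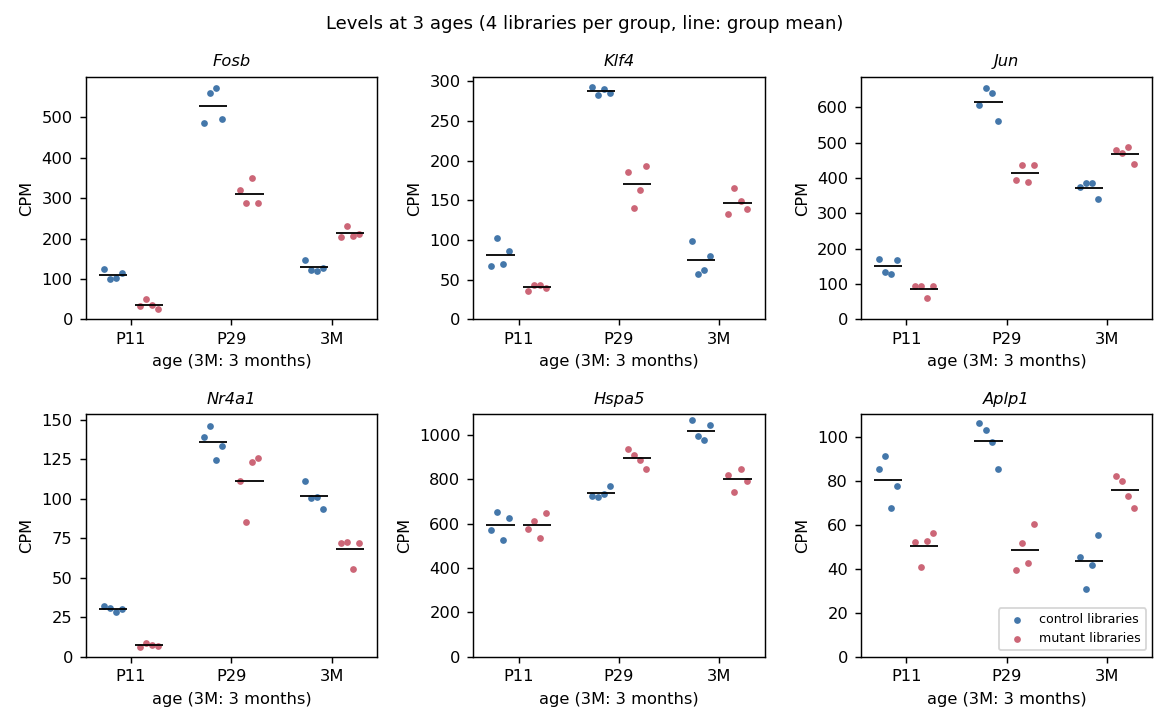
CPM (linear axis from 0) of Fosb, Klf4, Jun, Nr4a1, Hspa5 and Aplp1 in every library at P11, P29 and 3 months; blue points are control and red points mutant libraries (n = 4 per group), and black lines are group means. Fosb, Klf4, Jun and Aplp1 are lower in mutants at P11 and P29 and higher at 3 months, and Hspa5 is higher in mutants at P29 and lower at 3 months.

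The rod rise, taken as a log2 fold change, also depended on age. At P29, 15 of the 18 rod genes were called higher, against 1.63% of all genes, with a median of 0.48, and at P11, 7, against 3.26%, with a median of 0.05. In the interaction, 5 had a higher effect at 3 months than at P29, against 0.61% of all genes, and 13 than at P11, against 1.94%. Among those against P29 were Sag at 0.42, SE 0.08, adjusted p = 0.00066, Pde6g at 0.42, SE 0.10, adjusted p = 0.00668, Guca1b at 1.03, SE 0.16, adjusted p = 8.81e-06 and Slc24a1 at 0.43, SE 0.10, adjusted p = 0.00614. Sag against P11 was 0.77, SE 0.08, adjusted p = 1.29e-11. Of these, Guca1b differed most, since its log2 fold change at P29 was -0.15 (adjusted p = 0.708). Control means of Sag were 2932, 1185 and 413 CPM (P11, P29, 3 months), against mutant means of 3763, 1930 and 902 CPM. Its gap in CPM was thus smallest at 3 months, where its ratio was largest. For Pde6g the means were 948 and 270 CPM (control, P29 and 3 months), against 1186 and 452 CPM. Guca1b and Slc24a1 differed, with the mutant mean below the control mean at P29 and above it at 3 months. Tulp1, Reep6 and Opn1sw also had a larger effect at 3 months than at P29, by 0.62, SE 0.14, adjusted p = 0.00466, by 0.70, SE 0.14, adjusted p = 0.000914, and by 1.37, SE 0.32, adjusted p = 0.00721. Dct had an interaction of 0.35, SE 0.07, adjusted p = 0.000479, and was not called at P29, at -0.03 (adjusted p = 0.906).

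Of 18 glycolytic genes tested, 5 rose by small amounts and 0 fell, against 2.13% and 0.48% of all genes, and the median was 0.18. A log2 fold change above 0 was found for 15, against 6657 of all 12303 genes. For 8, every mutant library lay above every control library, against 5.07% of all genes. Pkm, pyruvate kinase, was at 461, 545, 443 and 516 CPM in the controls and 630.3, 602, 664 and 644 CPM in the mutants (edgeR, log2 fold change 0.37, SE 0.07, adjusted p = 0.000194). Hk2, the hexokinase isoform that is abundant in photoreceptors, was at 47.1, 51.9, 50.99 and 45.7 CPM in the controls and 77.8, 98.02, 87.6 and 77.7 CPM in the mutants (edgeR, log2 fold change 0.80, SE 0.18, adjusted p = 0.00144). Aldoc, an aldolase of neural tissue, had a log2 fold change of 0.58 and lost its call without control replicate 2, or mutant replicate 2. Aldoa had a log2 fold change of 0.23 and lost its call without control replicate 1 or 3, or mutant replicate 1, and with no filter on low counts (adjusted p = 0.067). Ldha, lactate dehydrogenase A, had a log2 fold change of 0.38 and lost its call in 7 of the 8 omissions, keeping it only without control replicate 1. It also lost it when only the 8 libraries were fitted, with voom, with median-of-ratios scaling and with no filter on low counts (adjusted p 0.0537 to 0.114). Ldha lies outside the rule for named genes and was chosen after its values were seen. Of 29 nuclear genes of oxidative phosphorylation, 11 mitochondrially encoded genes and 17 genes of fatty acid oxidation and ketone bodies, edgeR and DESeq2 called 0. At an unadjusted p under 0.05, 4, 4 and 0 were higher and 0, 1 and 1 lower, against 7.8% and 3.46% of all genes. With voom, 1 nuclear gene was called higher and 1 gene of fatty acid oxidation lower.

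In lipid synthesis, Msmo1, a sterol oxidase of cholesterol synthesis, was the only one of 22 genes called by edgeR. It was at 77.8, 98.5, 74.1 and 109 CPM in the controls and 131, 139, 138 and 135 CPM in the mutants (log2 fold change 0.59, SE 0.13, adjusted p = 0.00106), with no overlap, and its interaction against P29 was 0.99, SE 0.18, adjusted p = 0.000122. The list's median was 0.18, with 17 genes above 0. Among 24 antioxidant genes, 13 complement genes, 12 genes of inflammation and 14 p53 targets, edgeR and DESeq2 called 0, while voom called 1 antioxidant and 1 complement gene higher. At an unadjusted p under 0.05, 1, 1, 2 and 0 were higher and 0, 1, 0 and 0 lower, against 7.8% and 3.46% of all genes. Of 21 interferon genes, Ifit3 was called, at 29.5, 28.5, 40.97 and 27.9 CPM in the controls and 51.6, 59.7, 60.2 and 55.9 CPM in the mutants (edgeR, log2 fold change 0.84, adjusted p = 0.0134), and lost its call without control replicate 1, 2 or 4. Of 12 antigen presentation genes, H2-Aa, a class II chain, was called with 1.16 and lost its call without control replicate 1, 2 or 3, or mutant replicate 1, 2 or 3. Of 13 macrophage and microglia markers, 0 were called by edgeR, DESeq2 or voom, with 4 higher at an unadjusted p under 0.05, against 7.8% of all genes. No lymphocyte marker passed the filter on low counts.

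Single calls came from several further lists. Ccnd2, a D-type cyclin, was at 98.04, 103, 136 and 77.6 CPM in the controls and 165, 149, 183 and 150.2 CPM in the mutants (edgeR, log2 fold change 0.64, SE 0.11, adjusted p = 5.32e-06), the only call by edgeR among 18 cell cycle genes; it overlaps Gm43126. Tgfb2, a TGF-beta ligand, had a log2 fold change of 1.05 and lost its call without control replicate 2 or 3, or mutant replicate 3, when only the 8 libraries were fitted (adjusted p = 0.135) and with voom (0.187). Cp, ceruloplasmin, a ferroxidase that exports iron, was at 5.05, 4.52, 3.49 and 4.45 CPM in the controls and 16.4, 15.2, 7.63 and 10.5 CPM in the mutants (edgeR adjusted p = 0.00632), a call lost with voom (adjusted p = 0.0835); it overlaps Hps3.

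Markers of surface epithelium, vessels and stroma were also examined. Krt15, which marks the basal layer of stratified epithelia, was at 0 in all 4 control libraries and at 6.65, 6.10, 17.1 and 6.11 CPM in the mutants, at least 27.9-fold higher over the floor of 3 counts in the control group. Krt5, its basal partner, was likewise at 0 in the controls and at 3.52, 1.31, 1.35 and 3.49 CPM in the mutants, at least 7.72-fold higher. Both were called at P29 and P11 too. Of 11 genes of corneal and conjunctival epithelium, 4 were tested, and these 2 were called higher, against 2.13% of all genes. Both had control means of at most 1.32 CPM at every age and passed the filter on low counts only through mutant libraries. The number of calls in this list was thus in part set by the filter, and no conclusion is drawn from it. The summed level of the tested genes overlapped, at 93.0 to 133 CPM in the controls and 121 to 137 CPM in the mutants. Of 14 endothelial genes, 2 were called higher, against 2.13% of all genes: Esam, an adhesion molecule with no control count and 1.35 to 3.93 CPM in the mutants, at least 7.05-fold higher, and Kdr, the VEGF receptor, at 4.21, 0.452, 6.10 and 1.62 CPM in the controls and 17.6, 8.71, 12.1 and 7.42 CPM in the mutants (edgeR, log2 fold change 1.88, adjusted p = 5.95e-05). Of the 14 endothelial genes, 10 had a log2 fold change above 0, and the lowest value was -4.24. At an unadjusted p under 0.05 in edgeR, 5 were higher and 1 lower, against 7.8% and 3.46% of all genes. The summed endothelial level overlapped, at 207 to 265 CPM in the controls and 195 to 266 CPM in the mutants.

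Of 12 stromal fibroblast genes, 3 were called higher, against 2.13% of all genes, and 0 lower, with 6 above 0. Dcn, the proteoglycan decorin, was at 260.0, 264, 299 and 313 CPM in the controls and 386, 410.4, 437 and 379 CPM in the mutants (edgeR, log2 fold change 0.50, SE 0.08, adjusted p = 5.82e-06). Mgp, an inhibitor of calcification, and Apod, a lipocalin, had log2 fold changes of 0.48 and 0.58, and lost their calls without control replicate 1 for Mgp, and without control replicate 1 or 3, or mutant replicate 4 for Apod. The list's median was -0.02, and its summed level overlapped, at 736 to 1378 CPM and 1037 to 1237 CPM. Rgs5, a pericyte marker, had 0.60 (edgeR adjusted p = 0.00257), the only call by edgeR among 8 pericyte and smooth muscle genes, of which 2 had a log2 fold change above 0, with a median of -0.15 and a lowest value of -1.32. Against P11, the effect at 3 months was higher for Rgs5 (1.58, SE 0.19, adjusted p = 9.97e-10), Dcn (0.98, SE 0.12, adjusted p = 1.01e-09) and Mgp (1.47, SE 0.16, adjusted p = 5.49e-11). Against P29 it was higher for Dcn (0.63, SE 0.12, adjusted p = 0.000192) and Apod (0.94, SE 0.21, adjusted p = 0.00466).

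All 4 globin genes were slightly higher in the mutants. The summed level of 6 erythrocyte genes was 2081 to 2210 CPM in the controls and 2498 to 2664 CPM in the mutants, and 4 were called higher by edgeR, against 2.13% of all genes, 2 by DESeq2 and 1 by voom. Hba-a2 was at 417, 389, 379 and 357 CPM in the controls and 466, 487, 475 and 530.1 CPM in the mutants (edgeR, log2 fold change 0.35, adjusted p = 7.25e-05), and Hbb-bt was at 171 to 197 CPM in the controls and 203 to 238 CPM in the mutants (edgeR, log2 fold change 0.31, adjusted p = 0.00334). The call of Hba-a2 was lost with voom (adjusted p = 0.302), and that of Hbb-bt when only the 8 libraries were fitted (adjusted p = 0.0773). Hba-a1 and Hbb-bs had log2 fold changes of 0.29 and 0.18; their calls were lost without control replicate 1, 3 or 4, or mutant replicate 2, 3 or 4 for Hba-a1, and without control replicate 1, 2 or 4, or mutant replicate 2 for Hbb-bs, and both with DESeq2 and voom (adjusted p 0.0739 to 0.738). The globins are near-identical pairs whose tags can be divided uncertainly. Of 17 lens genes, 0 were called at 3 months by edgeR, DESeq2 or voom. At an unadjusted p under 0.05 in edgeR, 3 were higher, against 7.8% of all genes. At P29, 16 were higher, against 1.63% of all genes, and 3 had a lower effect at 3 months in the interaction test.

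The remaining large falls were in genes of mixed function. Arhgef3, a guanine nucleotide exchange factor for small GTPases, was at 187, 189, 149 and 157 CPM in the controls and 88.4, 102, 115 and 98.7 CPM in the mutants (edgeR, log2 fold change -0.75, SE 0.15, adjusted p = 0.000191). Abr, another regulator of small GTPases, was at 161, 120.1, 146 and 153 CPM in the controls and 102, 97.6, 78.6 and 89.1 CPM in the mutants (edgeR, log2 fold change -0.66, SE 0.14, adjusted p = 0.00097). Gldc, the glycine cleavage decarboxylase, was at 114, 105, 122 and 126 CPM in the controls and 83.7, 81.9, 63.8 and 58.95 CPM in the mutants (edgeR, log2 fold change -0.70, adjusted p = 0.00602), a call lost without mutant replicate 4 (adjusted p = 0.0578). For each of them the groups did not overlap. Vma21, an assembly factor of the proton pump on the X chromosome, had a log2 fold change of -0.73 and lost its call without control replicate 3 or 4, or mutant replicate 3. Wdfy1, an endosomal protein, had a log2 fold change of -0.88 and lost its call without control replicate 2 or 3, or mutant replicate 1 or 3.

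The calls at 3 months were set beside those at P29 and P11, which come from other libraries. Of the 262 higher genes, 84 (32.1%) were also higher at P29, which is 41.8% of the 201 higher genes there, and 53 (20.2%) were higher at P11, 27 being higher at all 3 ages. Of the 262, 6 (2.29%) were lower at P29 and 11 (4.2%) lower at P11. Among all genes tested, 1.63% were called higher and 1.21% lower at P29, and 3.26% and 3.67% at P11. Of the 59 lower genes, 19 (32.2%) were lower at P29, 12.8% of the 149 there, and 26 (44.1%) at P11, 5.75% of the 452 there. In the interaction test, 75 genes had a higher and 30 a lower effect at 3 months than at P29, and 239 and 72 than at P11 (1.94% and 0.585% of the genes tested).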

How the data were processed

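Raw counts per gene in 8 libraries of isolated mouse RPE at 3 months (and 16 at P11 and P29, which share the fit) were deposited by the authors; per the submitters' processing notes, STAR and mm10 were used, with no version given. No source used here names the counting tool or annotation, or says whether strand or molecular identifiers entered the counts. Each deposited count file held 31053 gene identifiers; 5 special entries that name no gene were dropped, of which reads with no feature made up 19.3% in controls and 18.7% in mutants at 3 months. Symbols and positions came from GENCODE M21 (GRCm38, the assembly of mm10), in which 31011 identifiers were found. Libraries were grouped by the labels.

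Genes were tested with edgeR 4.0.16 in R 4.3.3 (quasi-likelihood, TMM, filterByExpr, robust fit, 6 group means), on 24 libraries, with Benjamini-Hochberg adjustment over 12303 genes. Contrasts were mutant against control at 3 months, and its difference from that at P29 and P11. Standard errors are the log2 fold change over the root of F. CPM used TMM factors (0.937 to 0.968 at 3 months). Bounds use 3 counts over the control group. Depth was 2335766 to 2672988 counts; intervals and floors cover counting error only. All 12 replicate pairs differed beyond sampling noise (chi-square per gene 3.03 to 4.72). The numbers of the replicates did not pair the groups. The test was checked on simulated counts. Alternatives were other scalings, filters and libraries, DESeq2 1.42.0, limma 3.58.1 (voom), covariates, a replicate block and single libraries left out. The members and the 36 pathway and 19 cell type lists were chosen with earlier results of these data known. Named genes were Ift20, the 12 largest rises and falls (at least 5 CPM in 1 group, groups apart), the 10 smallest p, for every list the 4 members of smallest p, and the 8 smallest interaction p. Some genes of the lists and of this rule are counted but not reported here by name.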

Additional observations from a re-analysis of the deposited data

Results flagged for a closer look

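Within groups of 4 libraries, single libraries stood apart from the other 3 by more than Dixon's 95% critical share of the group's range for some of the genes given above; chance alone gives about 1 in 20 groups. The library was the highest, with its level in CPM in parentheses, for Nr2e3 in control replicate 1 (84.6), Pax6 in control replicate 3 (9.15), Snhg11 in control replicate 2 (1.35), Unc13c in mutant replicate 3 (26.5), Krt15 in mutant replicate 3 (17.1), Hba-a1 in mutant replicate 3 (785), Hbb-bs in mutant replicate 2 (1187), Ifit3 in control replicate 3 (41) and Xist in control replicate 3 (4.79). It was the lowest for Ift20 in mutant replicate 4 (97.4), Gnb1 in mutant replicate 4 (711), Crx in control replicate 1 (15.6), Thbs1 in control replicate 2 (233), Thbs1 in mutant replicate 4 (173) and Nr4a1 in mutant replicate 3 (55.7). The 15 cases come from 102 genes examined in the 2 groups. Those of mutant replicate 3 concern Unc13c, Nr4a1, Krt15 and Hba-a1, and those of mutant replicate 4 Ift20, Gnb1 and Thbs1. Cases of control replicate 3 concern Pax6, Ifit3 and Xist.

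The genotype effect differed between ages by the interaction test of edgeR for genes named above, of which only a part is listed here. As differences of the log2 fold change at 3 months from that at P29, the values were Sag 0.42, Pde6g 0.42, Guca1b 1.03, Slc24a1 0.43, Opn1sw 1.37, Tulp1 0.62, Reep6 0.70, Dct 0.35, Slc22a8 0.86, Psap 0.50, Msmo1 0.99, Thbs1 -1.10, Manf -1.29, Xbp1 -1.33, Hspa5 -0.63, Fosb 1.48, Klf4 1.73, Jun 0.91, Dcn 0.63, Apod 0.94, Xist 6.91, Aplp1 1.81, Wfikkn2 1.12, Rgr 0.52, with adjusted p of at most 0.00721. As differences from P11, they were Sag 0.77, Fosb 2.33, Klf4 1.97, Jun 1.15, Nr4a1 1.48, Rgs5 1.58, Dcn 0.98, Mgp 1.47, Xist 7.56, with adjusted p of at most 7.03e-05. Neither list is complete. Other named genes called at an adjusted p under 0.05 include Snhg11 3.54, H2-Aa 2.13, Rax 1.45, Ifit3 1.29 and Gldc -0.87 against P29. Against P11 they include Snhg11 3.48, Gnat1 0.72, Arhgef3 -1.11 and Abr -1.15. The groups at each age come from other animals or pools, and Xist differed between genotypes at all 3 ages by unequal amounts.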

How the results depend on the processing

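With 1 exception, the genes called at 3 months kept their number within 1.5 times under median-of-ratios scaling (244 higher, 61 lower), DESeq2 (266, 76), no filter on low counts (257, 58), the stricter filter (263, 60), autosomal genes alone (256, 53) and voom (238, 125), the exception being lower genes with voom. Fitting only the 8 libraries gave 165 lower genes, and a test against a 1.5-fold change 50 higher and 3 lower. Leaving out each library gave 199 to 243 higher, the fewest without control replicate 4, and 38 to 52 lower, the fewest without mutant replicate 4. The median over all genes was 0.03 with TMM and 0.02 with the other scaling. With the rod score as a covariate, 1 gene was higher and 1 lower; with the sex score, 5 and 18. For the difference from P29, the rod score left 2 higher and 4 lower, the sex score 4 and 18, voom gave 133 and 49, the libraries compared alone 61 lower, and leaving out single libraries 64 to 90 higher and 22 to 32 lower. For the difference from P11, the rod score left 0 and 0, the sex score 6 and 15, DESeq2 gave 115 lower, and leaving out single libraries 186 to 240 higher and 50 to 94 lower. The replicate numbers do not pair the samples (correlation of same-numbered deviations -0.0091 to 0.031); with the replicate block, 253 genes were higher and 58 lower at 3 months, 77 and 25 against P29, and 220 and 66 against P11. The cause of these shifts was not tested. Among named genes, the log2 fold change at 3 months changed sign with the rod score for Pde6g -0.012, Cnga1 -1.45, Cngb1 -0.15, Rom1 -0.53, Nrl -0.043, Nr2e3 -0.095, Gnb3 -1.68, Arr3 -0.47, Tub -1.37, Tfap2b -0.97, Unc13c -3.62, Celf4 -0.40, Ldha -0.46, Rpe65 0.32, Dct -0.097, Msmo1 -1.62, Col4a4 0.29, Col8a1 0.084, Timp3 0.19, Hspa5 0.28, Nr4a1 0.38, Rgs5 -0.63, Apod -0.54, Tgfb2 -1.19, Wdfy1 0.71, and with the sex score for Pax6 -2.73, Kif5a -1.13, Aldoc -0.57, Rpe65 0.0097, Jun -0.022, Kdr -1.53, Mgp -0.57, Hbb-bs -0.10, Ifit3 -1.25, Ccnd2 -1.08, Arhgef3 0.27; the genotype and either score are nearly the same variable here. The rod score is the mean log2 level of the tested rod genes, among them Pde6g, Cnga1, Cngb1, Rom1, Nrl and Nr2e3. For these genes the fit adjusts each gene in part for itself, so no conclusion is drawn from their change of sign. Depth limits genes near the floor of 1.12 to 1.28 CPM.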

Other observations

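Melanocyte, myelin and circadian clock genes gave no call by edgeR at 3 months. By edgeR, DESeq2 and voom, 0 of 8 melanocyte genes and 0 of 9 myelin and Schwann cell genes were called, with 3 and 1 higher at an unadjusted p under 0.05 in edgeR, against 7.8% of all genes. Of 16 circadian clock genes, edgeR and DESeq2 called 0 and voom 1 lower, with 2 lower at an unadjusted p under 0.05, against 3.46% of all genes. The summed level of the melanocyte list, part of which the RPE also expresses, was 954 to 1017 CPM in the controls and 1070 to 1249 CPM in the mutants, which do not overlap; 6 of its 8 genes had a log2 fold change above 0, with a median of 0.22.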
